A study of Liolaemus parthenos with 3 samples.

Results

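CR1 LINE transcripts were described in 3 tissues (brain, ovary, liver) taken from 1 wild-caught adult of the parthenogenetic lizard Liolaemus parthenos, sequenced to try out a pipeline for element expression without a genome. The members were the assembled transcripts that the authors' annotation names NonLTR/LINE/CR1/CR1 and that the quantification files hold. There were 198 of them among 480 transcripts, or 41.25%. The annotation gives the CR1 name to 5758 of 19207 assembled transcripts, so the files held 3.44% of the named CR1 transcripts. The row of the same name in the authors' table of reads per element subfamily was described beside them.

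CR1 elements are long interspersed elements (LINE), retrotransposons that copy themselves through an RNA. They encode a reverse transcriptase and an endonuclease, and they insert by reverse transcription at the nicked target DNA. The family is widespread in reptiles and is the main LINE of bird genomes, and most of its genomic copies have lost the 5′ end. A transcript of a full copy can serve the element's own movement, whereas RNA of a short, truncated copy may be part of a host transcript.

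Each tissue was 1 library of total RNA, made with a kit that does not keep strand, so CR1 reads and reads of a gene on the other strand cannot be told apart. Every read of a transcript with the CR1 name was counted as CR1, whatever other sequence that transcript, short or long, may hold. No library had a replicate. All intervals below are exact 95% intervals of counting error in these libraries, and no difference between tissues was tested. Less RNA per cell and fewer cells of a type cannot be told apart in such bulk tissue. The file attached to the ovary sample bears the liver's name and that of the liver sample the ovary's, so file values are given by sample record ("recorded ovary", "recorded liver") and table values by column ("Brain", "Ovary" and "Liver", with a capital). The quantification files held 16405 reads for brain, 4651 for recorded ovary and 10644 for recorded liver. The subfamily table held 5468656 reads under Brain, 1143616 under Ovary and 1717904 under Liver. Exchanging both names would exchange the 2 comparisons with brain and turn every ratio of ovary over liver. The files name no genes, so the tissue labels could not be checked against markers. CR1 sequences were not used here.

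CR1 was the subfamily with the most reads after SINE3, a group of short elements, in each column of the table. It had 143550 reads under Brain, 64117 under Ovary and 122676 under Liver. As shares of all element reads these were 2.62% (2.61 to 2.64), 5.61% (5.56 to 5.65) and 7.14% (7.10 to 7.18), with intervals that did not overlap. In the quantification files CR1 had 6732 reads in brain, 2123 in recorded ovary and 4791 in recorded liver. There its shares were 41.0% in brain (40.3 to 41.8), 45.6% in recorded ovary (44.2 to 47.1) and 45.0% in recorded liver (44.1 to 46.0). The intervals of recorded ovary and recorded liver overlapped, and brain lay below both. As shares of all reads, the files thus showed ratios close to 1. These were 0.899 for brain over ovary (0.856 to 0.944), 0.912 for brain over liver (0.878 to 0.946) and 1.01 for ovary over liver (0.963 to 1.07). Other scalings moved the comparisons with recorded liver. With TMM and median-of-ratios factors, the log2 ratio was -0.90 and -1.04 for brain over liver, and -0.66 and -0.72 for ovary over liver. In the table the CR1 share under Brain was 2.14-fold lower than under Ovary and 2.72-fold lower than under Liver. With SINE3 left out, CR1 held 30.6% of the reads under Brain, 25.1% under Ovary and 45.5% under Liver, and the direction for brain over ovary turned. The files held only 5 SINE transcripts, with 0.26% of the reads in brain, 0.17% in recorded ovary and 0.39% in recorded liver. The shares of table and files thus have unlike denominators, and their sizes cannot be set against each other. The CR1 reads of the files amounted to 4.69% of those of the table for brain, 3.31% for recorded ovary set beside Ovary and 3.91% for recorded liver set beside Liver.

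Within the LINEs, Penelope included, CR1 took 60.6% of the reads under Brain (60.4 to 60.8), 58.7% under Ovary (58.4 to 59.0) and 80.9% under Liver (80.7 to 81.1). In the files these shares were 61.5% in brain (60.6 to 62.5), 70.7% in recorded ovary (69.0 to 72.3) and 77.3% in recorded liver (76.3 to 78.4). Brain was lowest in the files, while Ovary was lowest in the table. L2 is placed in the same superfamily as CR1 by the files. The table counted 4.32 CR1 reads per L2 read under Brain (4.27 to 4.37), 6.48 under Ovary (6.35 to 6.62) and 17.1 under Liver (16.7 to 17.5). The files counted 1.88 in brain (1.81 to 1.96), 2.64 in recorded ovary (2.43 to 2.87) and 4.32 in recorded liver (4.05 to 4.62). Brain was lowest in both data sets. With the files taken by record, recorded liver was highest, like Liver in the table. With the files taken by their names, the 4.32 would be that of ovary and the 2.64 that of liver, and the order would differ from that of the table. These ratios lie within a library and do not depend on its total. They show unequal reads summed over each of the 2 families and do not say which of them differed between tissues. In the files, TRINITY_DN4126_c0_g1 and TRINITY_DN3590_c0_g1, described below, together held 44.3% of the CR1 reads in brain, 53.3% in recorded ovary and 73.4% in recorded liver. L2 had 3577 reads in brain, 804 in recorded ovary and 1109 in recorded liver. In recorded liver each of these components alone, with 2306 and 1211 reads, had more reads than all L2 transcripts. In brain (1554 and 1425) and recorded ovary (577 and 555) each had fewer. The ratios of the files, and their order, therefore need not hold for the other CR1 transcripts, for which none was computed. Against L1, another autonomous LINE, the order differed in the table, which had 4.78 CR1 reads per L1 read under Brain, 2.94 under Ovary and 13.3 under Liver. The files had 19.6 in brain (17.6 to 21.9), 50.5 in recorded ovary (37.3 to 70.3) and 68.4 in recorded liver (54.1 to 87.9). This was the order seen against L2, but the intervals of recorded ovary and recorded liver overlapped. The values rest on 343, 42 and 70 L1 reads.

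**Figure D1:**
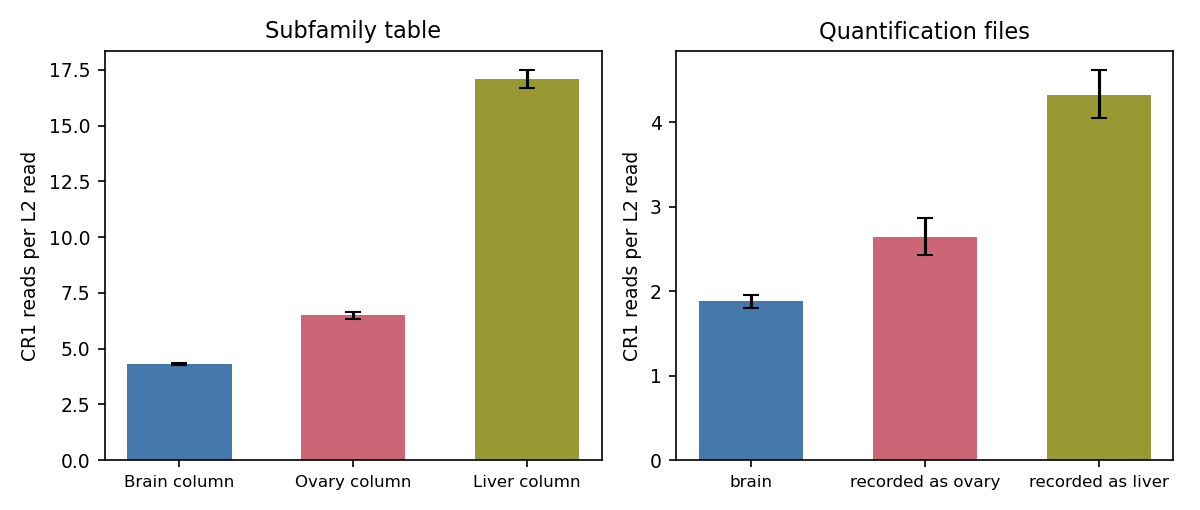
CR1 reads per L2 read (linear axis) in the 3 columns of the subfamily table (left) and the 3 quantification files (right), with exact 95% counting intervals. Brain is lowest in both, at 4.32 and 1.88. The highest bars are the Liver column, at 17.1, and recorded liver, at 4.32, which would be ovary by the file's own name. The axes differ in scale. In the files, 2 assembled components held 44.3% of the CR1 reads in brain, 53.3% in recorded ovary and 73.4% in recorded liver.

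The near-equal CR1 shares of the files were divided in different proportions among their transcripts. The 198 transcripts fall into 173 assembled components, which are names without the final i number. Of these components 158 held 1 CR1 transcript in the files and 15 held several. The annotation names 243 CR1 transcripts of these components, against the 198 in the files. Component sums and splits thus cover only the transcripts that the files hold. The component TRINITY_DN4126_c0_g1 had 1554 reads in brain, 577 in recorded ovary and 2306 in recorded liver. It took 23.1% of the CR1 reads in brain, 27.2% in recorded ovary and 48.1% in recorded liver. TRINITY_DN3590_c0_g1 had 1425, 555 and 1211 reads, or 21.2%, 26.1% and 25.3% of the CR1 reads. Together these components held 44.3% of the CR1 reads in brain, 53.3% in recorded ovary and 73.4% in recorded liver. With both left out, a choice made after their reads were seen, CR1 took 28.0% of the remaining reads in brain, 28.2% in recorded ovary and 17.9% in recorded liver. The log2 ratio of brain over liver was then 0.65, against -0.13 with all CR1 transcripts, and that of ovary over liver 0.66, against 0.02. Both take the remaining reads as total and were not computed with other scalings. TMM and median-of-ratios factors shift log2 ratios of shares by -0.77 and -0.91 for brain over liver. For ovary over liver the shifts are -0.68 and -0.74. These shifts are of similar size, so the values of 0.65 and 0.66 depend on the scaling.

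**Figure D2:**
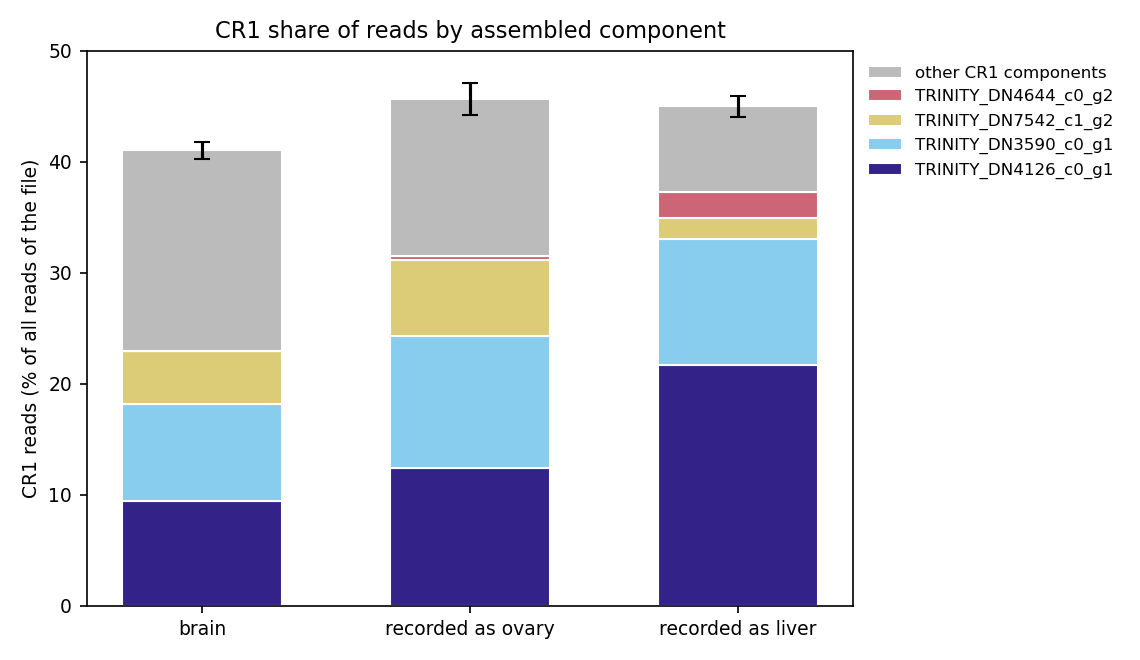
CR1 reads as a percentage of all reads of each quantification file, stacked by assembled component, with the exact 95% counting interval of the total. The totals lie between 41.0% and 45.6%, while TRINITY_DN4126_c0_g1 takes 9.47% in brain, 12.4% in recorded ovary and 21.7% in recorded liver, and the components not named take 18.1%, 14.1% and 7.77%.

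As shares of all reads of the files, TRINITY_DN4126_c0_g1 was 2.29-fold lower in brain than in recorded liver (2.14 to 2.44). It was 1.31-fold lower in brain than in recorded ovary (1.19 to 1.44) and 1.75-fold lower in recorded ovary than in recorded liver (1.59 to 1.92). The log2 ratio of ovary over liver, -0.80, became -1.49 with TMM and -1.54 with median-of-ratios factors, past the 2-fold limit. Its shares followed the order brain, recorded ovary, recorded liver with intervals that did not overlap. TRINITY_DN3590_c0_g1 took 8.69% in brain (8.26 to 9.13), 11.9% in recorded ovary (11.0 to 12.9) and 11.4% in recorded liver (10.8 to 11.996), where the intervals of recorded ovary and recorded liver overlapped. Brain was 1.37-fold lower than recorded ovary (1.24 to 1.52) and 1.31-fold lower than recorded liver (1.21 to 1.42), within the 2-fold limit. The log2 ratio of brain over liver, -0.39, became -1.16 with TMM and -1.30 with median-of-ratios factors, past that limit.

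These components hold the 8 longest CR1 transcripts. In the files TRINITY_DN4126_c0_g1 consists of transcripts of 7524, 7520, 3643 and 3640 bases, that is, 2 pairs of nearly equal length. Of its reads, the 7524-base transcript TRINITY_DN4126_c0_g1_i2 took 30.3% in brain, 12.6% in recorded ovary and 50.6% in recorded liver. The 7520-base TRINITY_DN4126_c0_g1_i5 took 19.7%, 32.5% and 17.9% in the same order. The 3643-base TRINITY_DN4126_c0_g1_i4 took 15.1% in brain, 32.4% in recorded ovary and 31.5% in recorded liver. The 3640-base TRINITY_DN4126_c0_g1_i3 took 34.9% in brain and 22.5% in recorded ovary, but 0.004 of a read in recorded liver, where the interval reached up to 0.16%. Each library thus had another leading transcript: the 3640-base one in brain, the 7520-base and 3643-base ones at nearly equal shares in recorded ovary and the 7524-base one in recorded liver. Reads of such similar transcripts are divided by estimation, and how much of these splits comes from that division was not tested.

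In TRINITY_DN3590_c0_g1, the 3839-base TRINITY_DN3590_c0_g1_i1 led in every library, with 41.5% of the component's reads in brain (38.9 to 44.1), 44.9% in recorded ovary (40.7 to 49.1) and 63.8% in recorded liver (61.1 to 66.5). The 3965-base TRINITY_DN3590_c0_g1_i3 took 40.8%, 32.4% and 25.6%, and the 3840-base TRINITY_DN3590_c0_g1_i5 17.7%, 12.8% and 10.6%. The 3972-base TRINITY_DN3590_c0_g1_i4 had 54.4 reads in recorded ovary and 0 in brain and recorded liver. Its share of all reads in recorded ovary was 1.17%, and the floor of 3 reads stands for 0.0183% in brain and 0.0282% in recorded liver. It was therefore at least 63.9-fold lower in brain than in recorded ovary against this floor, with an exact lower limit of 49.9. It was at least 41.5-fold higher in recorded ovary than in recorded liver, with an exact lower limit of 32.4. Summed over its transcripts in the files, the component showed no such difference, since recorded ovary and recorded liver had a ratio of 1.05 (0.947 to 1.16). Here too reads are divided by estimation among transcripts of similar length. Both lower limits cover counting error and leave that division out, and its part in the difference was not tested.

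**Figure D3:**
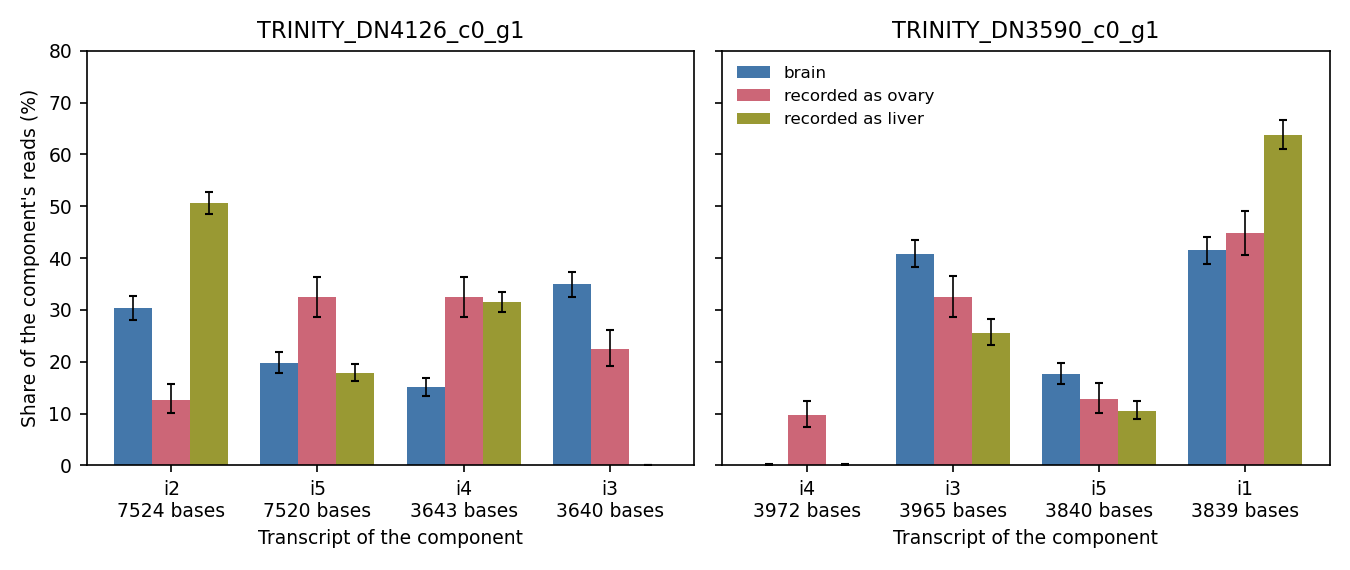
Share of the component's reads (percent) that each transcript took in the 3 libraries, for TRINITY_DN4126_c0_g1 (left) and TRINITY_DN3590_c0_g1 (right), with exact 95% counting intervals. TRINITY_DN4126_c0_g1_i3 takes 34.9% in brain and no whole read in recorded liver, and TRINITY_DN3590_c0_g1_i4 has reads in recorded ovary alone.

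After TRINITY_DN4126_c0_g1 and TRINITY_DN3590_c0_g1, the component with most CR1 reads was TRINITY_DN7542_c1_g2 in brain and recorded ovary and TRINITY_DN4644_c0_g2 in recorded liver. The 439-base TRINITY_DN7542_c1_g2_i3, the only transcript of its component in the files, had 787 reads in brain, 316 in recorded ovary and 200 in recorded liver. These were 4.80%, 6.79% and 1.88% of all reads, and 11.7%, 14.9% and 4.17% of the CR1 reads. Recorded liver was lowest, with an interval (1.63 to 2.16%) clear of brain (4.48 to 5.14%) and recorded ovary (6.09 to 7.56%). The share was 2.56-fold higher in brain than in recorded liver (2.18 to 2.997) and 3.62-fold higher in recorded ovary than in recorded liver (3.02 to 4.34). For brain over liver, its log2 ratio of 1.36 became 0.59 with TMM factors, 0.45 with median-of-ratios factors and 0.74 by TPM, each under 2-fold, so this call was lost there. Corrected for length, it had the highest level of all CR1 transcripts in brain (72744 TPM) and recorded ovary (106928 TPM), and 43473 TPM in recorded liver. The 425-base TRINITY_DN7542_c1_g1_i6, from another g number of the same cluster name, was chosen after its values were seen. It had 69.8 reads in brain, 4.02 in recorded ovary and 11.4 in recorded liver, so it was 4.93-fold higher in brain than in recorded ovary (1.85 to 18.7) and 3.97-fold higher than in recorded liver (2.17 to 8.65).

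TRINITY_DN4644_c0_g2 was highest in recorded liver, with 2.32% of all reads, against 0.409% in recorded ovary and 0.0122% in brain. Its 306-base transcript TRINITY_DN4644_c0_g2_i3 had 1 read in brain, 14 in recorded ovary and 161 in recorded liver, and its 242-base transcript TRINITY_DN4644_c0_g2_i2 had 1, 5 and 86. All of these were whole reads. Their levels in recorded liver were 65807 and 55521 TPM, the highest of all CR1 transcripts there, against 156 and 245 TPM in brain and 7537 and 4235 TPM in recorded ovary. The component's share was 190-fold lower in brain than in recorded liver (52.1 to 1580) and 5.68-fold lower in recorded ovary than in recorded liver (3.56 to 9.60). Between brain and recorded ovary, with 2 and 19 reads, it was 33.5-fold lower in brain (8.08 to 297).

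Most CR1 transcripts were short. Their median length was 252 bases, with quartiles of 221 and 314.5 and a range of 201 to 7524, and no transcript lay between 610 and 1269 bases. These are lengths as assembled, and whether a short transcript is a piece of a longer RNA was not tested. A short class of 139 transcripts was under 300 bases, a middle class of 49 was at least 300 and under 1000 bases, and a long class of 10 transcripts from 4 components had 1000 bases or more. The 10 long transcripts took 47.1% of CR1 reads in brain (45.9 to 48.3), 55.0% in recorded ovary (52.8 to 57.1) and 74.3% in recorded liver (73.0 to 75.5). The 139 transcripts under 300 bases took 22.6% in brain (21.6 to 23.6), 15.7% in recorded ovary (14.2 to 17.4) and 10.8% in recorded liver (9.97 to 11.7). The middle class took 30.2%, 29.3% and 14.9%. Reads of the long class had a share of the file 1.73-fold lower in brain than in recorded liver (1.65 to 1.81). Those of the short class were 1.90-fold higher in brain (1.72 to 2.11) and those of the middle class 1.85-fold higher (1.70 to 2.02). TMM and median-of-ratios factors move brain over liver by -0.77 and -0.91 on the log2 scale. These shifts are close in size to the excess of the short and middle classes in brain, which thus depends on the scaling. Between brain and recorded ovary, the long class was 1.30-fold lower in brain (1.21 to 1.39) and the short class 1.29-fold higher (1.15 to 1.46). The middle class had a ratio of 0.928, and its interval (0.848 to 1.02) included 1. Most reads of the long class were those of TRINITY_DN4126_c0_g1 and TRINITY_DN3590_c0_g1, so its ratios are mainly theirs. Outside them, TRINITY_DN83796_c0_g1 had 73 reads in brain and 0 in recorded ovary and recorded liver. TRINITY_DN28489_c0_g1 had a ratio of 0.988 for brain over ovary (0.674 to 1.48) and of 1.88 for brain over liver (1.32 to 2.74).

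On the TPM scale, which divides by effective length, the picture of the classes turned. Transcripts under 300 bases held 65.0% of CR1 TPM in brain, 57.2% in recorded ovary and 61.0% in recorded liver, and the long class 2.95%, 3.75% and 7.03%. The effective length is the number of positions at which a fragment could start, and its median in the short class was 84.1 bases in brain, 75 in recorded ovary and 77 in recorded liver. For TRINITY_DN36687_c2_g1_i1, with 201 bases one of the shortest, it was 60, 55 and 56 bases. This transcript had 42 reads in brain, 41 in recorded ovary and 12 in recorded liver, which became 15603, 51773 and 11897 TPM. TPM of short transcripts thus rests on few reads multiplied by a large factor. CR1 as a whole held 60.5% of TPM in brain, 52.5% in recorded ovary and 59.7% in recorded liver, so brain was highest by TPM and lowest by reads.

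**Figure D4:**
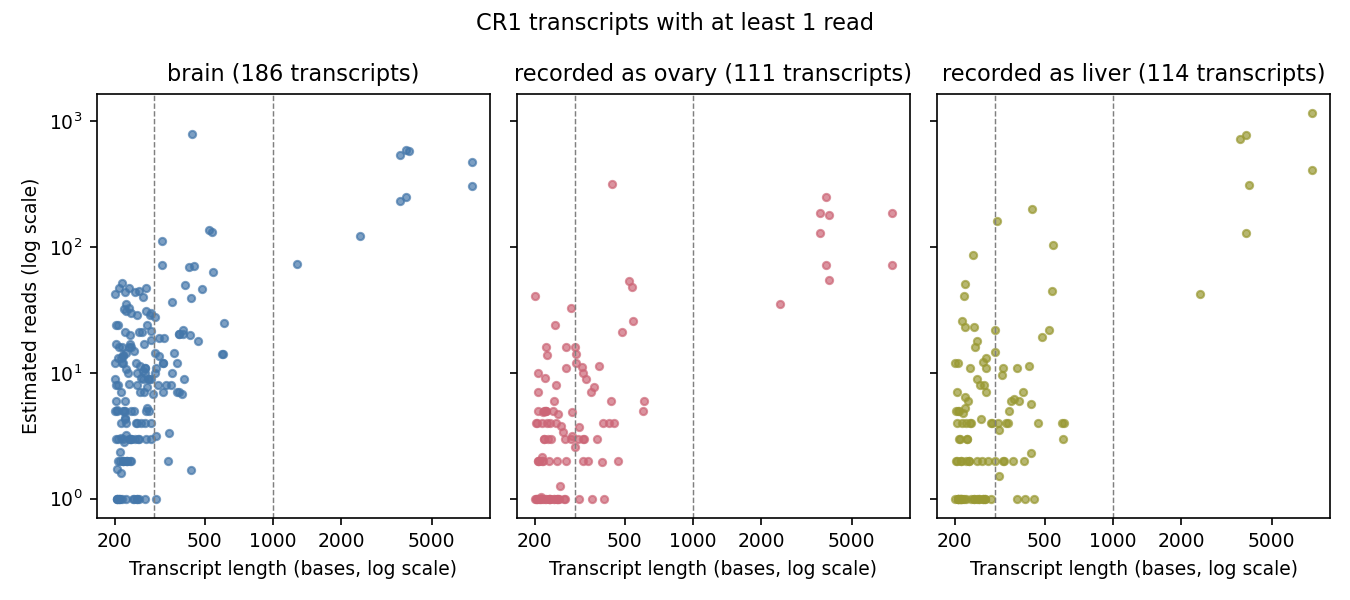
Estimated reads of each CR1 transcript against its length in bases (both log scales), 1 panel per library, for transcripts with at least 1 read; dashed lines mark 300 and 1000 bases. The long transcripts with reads lie at the right, at 35 to 1167 reads, and the highest of those under 300 bases have 52 reads in brain, 41 in recorded ovary and 86 in recorded liver.

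Of the 198 CR1 transcripts, 186 had at least 1 read in brain, 111 in recorded ovary and 114 in recorded liver. The libraries differ in depth. At the 4651 reads of recorded ovary, 154 would be expected in brain and 90.9 in recorded liver. The same expectation over all 480 transcripts was 375 in brain, 262 in recorded ovary and 226 in recorded liver, so the order was not particular to CR1. All 3 libraries shared 82 CR1 transcripts, or 41.4%, against 36.9% of the other 282 transcripts. Reads in brain alone were found for 55, or 27.8%, against 21.6% of the others. In recorded ovary alone there were 7, beside 3 of the 282 others, and in recorded liver alone 1, which had 3 reads, beside 10 of the 282 others. No read in any library was found for 2 CR1 transcripts and 5 of the others. Ranks of reads over the 198 transcripts gave Spearman's rho as 0.25 between brain and recorded ovary, 0.35 between brain and recorded liver and 0.55 between recorded ovary and recorded liver. These points share length and the many low counts, and they are no replicates.

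The reads were most concentrated in recorded liver. The 5 CR1 transcripts with most reads took 44.2% of CR1 reads in brain, 52.7% in recorded ovary and 70.7% in recorded liver. By TPM this order did not hold. The 5 transcripts with most TPM took 22.6% of CR1 TPM in brain, 40.0% in recorded ovary and 39.1% in recorded liver. The 5 leading components took 60.4%, 73.7% and 84.9%. The effective number of components, which is the number of equally abundant ones that would give the same concentration, was 8.68 in brain, 5.96 in recorded ovary and 3.32 in recorded liver. TRINITY_DN4126_c0_g1 and TRINITY_DN3590_c0_g1 ranked first and next in every library. TRINITY_DN7542_c1_g2 followed in brain and recorded ovary, and TRINITY_DN4644_c0_g2 in recorded liver.

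Single transcripts were called higher or lower where the share differed at least 2-fold, the reads of the pair summed to 20 or more and the counting interval did not include 1. A count of 0 was set at 3 reads, and "at least" refers to the fold against this floor. The lower limit of the exact interval, given in brackets, is smaller still. For brain over ovary, 61 CR1 transcripts had enough reads, of which 20 were higher in brain, 7 lower and 34 neither. Over all 118 transcripts with enough reads, 33.1% were higher and 11.0% lower in brain, so the CR1 shares of 32.8% and 11.5% lay near that background. As components, 22 of 54 were higher and 5 lower, against 36.7% and 7.14% of all components. The counts include transcripts that passed the minimum only through the library where they were high. With a minimum of 10 reads, 20 CR1 transcripts were higher in brain and 14 lower, and with no minimum 20 and 23. The excess of higher over lower calls thus depended on the minimum. The median log2 ratio was 0.77 over the 61 CR1 transcripts and 0.92 over the 118, which include those 61. Over the 57 others alone, 33.3% were higher and 10.5% lower in brain, with a median of 1.14.

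The clearest transcripts on the brain side had no read in recorded ovary. TRINITY_DN16392_c1_g1_i3, of 325 bases, had 112 reads in brain and 0 in recorded ovary and recorded liver. It was at least 10.6-fold higher in brain than in recorded ovary (8.47), and at its brain share 31.8 reads would have been expected there. The 1269-base TRINITY_DN83796_c0_g1_i1 had 73 reads in brain and 0 in the other 2 libraries, which is at least 6.90-fold higher than in recorded ovary (5.47). TRINITY_DN8150_c6_g1_i1 (215 bases; 52 reads in brain, 0 in recorded ovary and 26 in recorded liver) was at least 4.91-fold higher in brain than in recorded ovary (3.86). So were TRINITY_DN52251_c1_g1_i1 (410 bases; 50, 0 and 1 reads), at least 4.73-fold (3.70), and TRINITY_DN75120_c0_g1_i1 (274 bases; 47, 0 and 7 reads), at least 4.44-fold (3.47).

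On the other side, TRINITY_DN32358_c1_g1_i1, of 289 bases, had 9 reads in brain, 33 in recorded ovary and 4 in recorded liver. It was 12.9-fold lower in brain than in recorded ovary (6.05 to 30.7) and 18.9-fold higher in recorded ovary than in recorded liver (6.72 to 73.4). TRINITY_DN36687_c2_g1_i1 was 3.44-fold lower in brain than in recorded ovary (2.18 to 5.43) and 7.82-fold higher in recorded ovary than in recorded liver (4.03 to 16.3). Both were thus highest in recorded ovary. TRINITY_DN4126_c0_g1_i4, with 234, 187 and 726 reads, was 2.82-fold lower in brain than in recorded ovary (2.31 to 3.43). TRINITY_DN4126_c0_g1_i5, with 307, 187 and 413 reads, was 2.16-fold lower (1.78 to 2.59), and as a share of CR1 reads its log2 ratio of -1.11 became -0.95, under 2-fold. The component of both was only 1.31-fold lower (1.19 to 1.44). Its reads are divided among similar transcripts by estimation, which the intervals of single transcripts leave out.

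For brain over liver, 70 CR1 transcripts had enough reads, and 38 were higher in brain, 11 lower and 21 neither. The background over all 135 transcripts was 51.1% higher and 16.3% lower, beside 54.3% and 15.7% for CR1. As components, 35 of 60 were higher and 7 lower, against 55.9% and 12.6% of all components. Here too the counts and medians include transcripts that passed the minimum only through the library where they were high, and brain was the deeper library. With a minimum of 10 reads, 55 CR1 transcripts were higher in brain and 13 lower, and with no minimum 55 and 15. The median log2 ratio was 1.73 over the 70 and 1.31 over the 135, although the summed CR1 share was lower in brain. The 135 include the 70. Over the 65 others alone, 47.7% were higher and 16.9% lower in brain, with a median of 1.11. Other scalings moved this comparison for every transcript alike, by -0.77 on the log2 scale with TMM factors and by -0.91 with median-of-ratios factors.

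By the interval bound nearest to 1, the leading transcript on the brain side was TRINITY_DN4126_c0_g1_i3, with 543 reads in brain, 130 in recorded ovary and 0.004 in recorded liver. It was at least 117-fold higher in brain than in recorded liver (95.2), whereas its component was lower in brain. TRINITY_DN16392_c1_g1_i3 was at least 24.2-fold higher than in recorded liver (19.4) and TRINITY_DN83796_c0_g1_i1 at least 15.8-fold (12.5). TRINITY_DN53923_c3_g1_i1 (209 bases; 47 reads in brain, 1 in recorded ovary and 0 in recorded liver) was at least 10.2-fold higher (7.95). TRINITY_DN739_c14_g1_i1 (448 bases; 70, 4 and 1 reads) was 45.4-fold higher, with an interval of 7.89 to 1819 that rests on the single read in recorded liver. The 520-base TRINITY_DN38329_c2_g1_i1, with 136 reads in brain, 54 in recorded ovary and 22 in recorded liver, was 4.01-fold higher in brain than in recorded liver (2.54 to 6.61).

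Lower in brain than in recorded liver were both transcripts of TRINITY_DN4644_c0_g2, 248-fold (43.9 to 9861) for TRINITY_DN4644_c0_g2_i3 and 133-fold (23.2 to 5295) for TRINITY_DN4644_c0_g2_i2, each with 1 read in brain. TRINITY_DN1794_c2_g2_i2, of 219 bases, had 2 reads in brain, 3 in recorded ovary and 41 in recorded liver, and was 31.6-fold lower in brain than in recorded liver (8.21 to 270). TRINITY_DN4126_c0_g1_i4 was 4.78-fold lower (4.12 to 5.56). TRINITY_DN4126_c0_g1_i2, with 470 reads in brain, 72.6 in recorded ovary and 1167 in recorded liver, was 3.82-fold lower (3.44 to 4.27). Their component, summed over its transcripts, was 2.29-fold lower (2.14 to 2.44). TRINITY_DN3590_c0_g1_i1, with 591, 249 and 773 reads, was at the limit, 2.02-fold lower (1.81 to 2.25), and as a share of CR1 reads its log2 ratio of -1.01 became -0.88, under 2-fold.

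For ovary over liver, 30 CR1 transcripts had enough reads, and 11 were higher in recorded ovary, 7 lower and 12 neither. The background over all 61 transcripts was 34.4% higher and 34.4% lower, beside 36.7% and 23.3% for CR1. As components, 11 of 25 were higher and 5 lower, against 37.8% and 31.1% of all components. These too include transcripts that passed the minimum only through the library where they were high. With a minimum of 10 reads, 17 CR1 transcripts were higher in recorded ovary and 8 lower, and with no minimum 26 and 8. The median log2 ratio was 0.84 over the 30 and 0.35 over the 61, which include the 30. Over the 31 others alone, 32.3% were higher and 45.2% lower in recorded ovary, with a median of -0.60. These others were not alike. Of 11 L2 transcripts, 54.5% were higher and 9.09% lower, with a median of 1.25. Of 15 LTR transcripts, 26.7% were higher and 60.0% lower, with a median of -2.51. The difference from the others was thus not particular to CR1, since L2 lay on the same side. TRINITY_DN4126_c0_g1_i3 was at least 99.2-fold higher in recorded ovary than in recorded liver (79.5), whereas its component was 1.75-fold lower in recorded ovary (1.59 to 1.92). TRINITY_DN38329_c2_g1_i1 was 5.62-fold higher (3.36 to 9.69). TRINITY_DN4126_c0_g1_i2 was 7.03-fold lower in recorded ovary (5.51 to 8.98), TRINITY_DN4644_c0_g2_i2 7.52-fold lower (3.10 to 23.7) and TRINITY_DN4644_c0_g2_i3 5.03-fold lower (2.91 to 9.40). TRINITY_DN8150_c6_g1_i1 and the 223-base TRINITY_DN32828_c1_g1_i5 had 0 reads in recorded ovary and 26 and 23.0 in recorded liver, so they were at least 3.79-fold (2.87) and 3.35-fold (2.51) lower in recorded ovary.

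**Figure D5:**
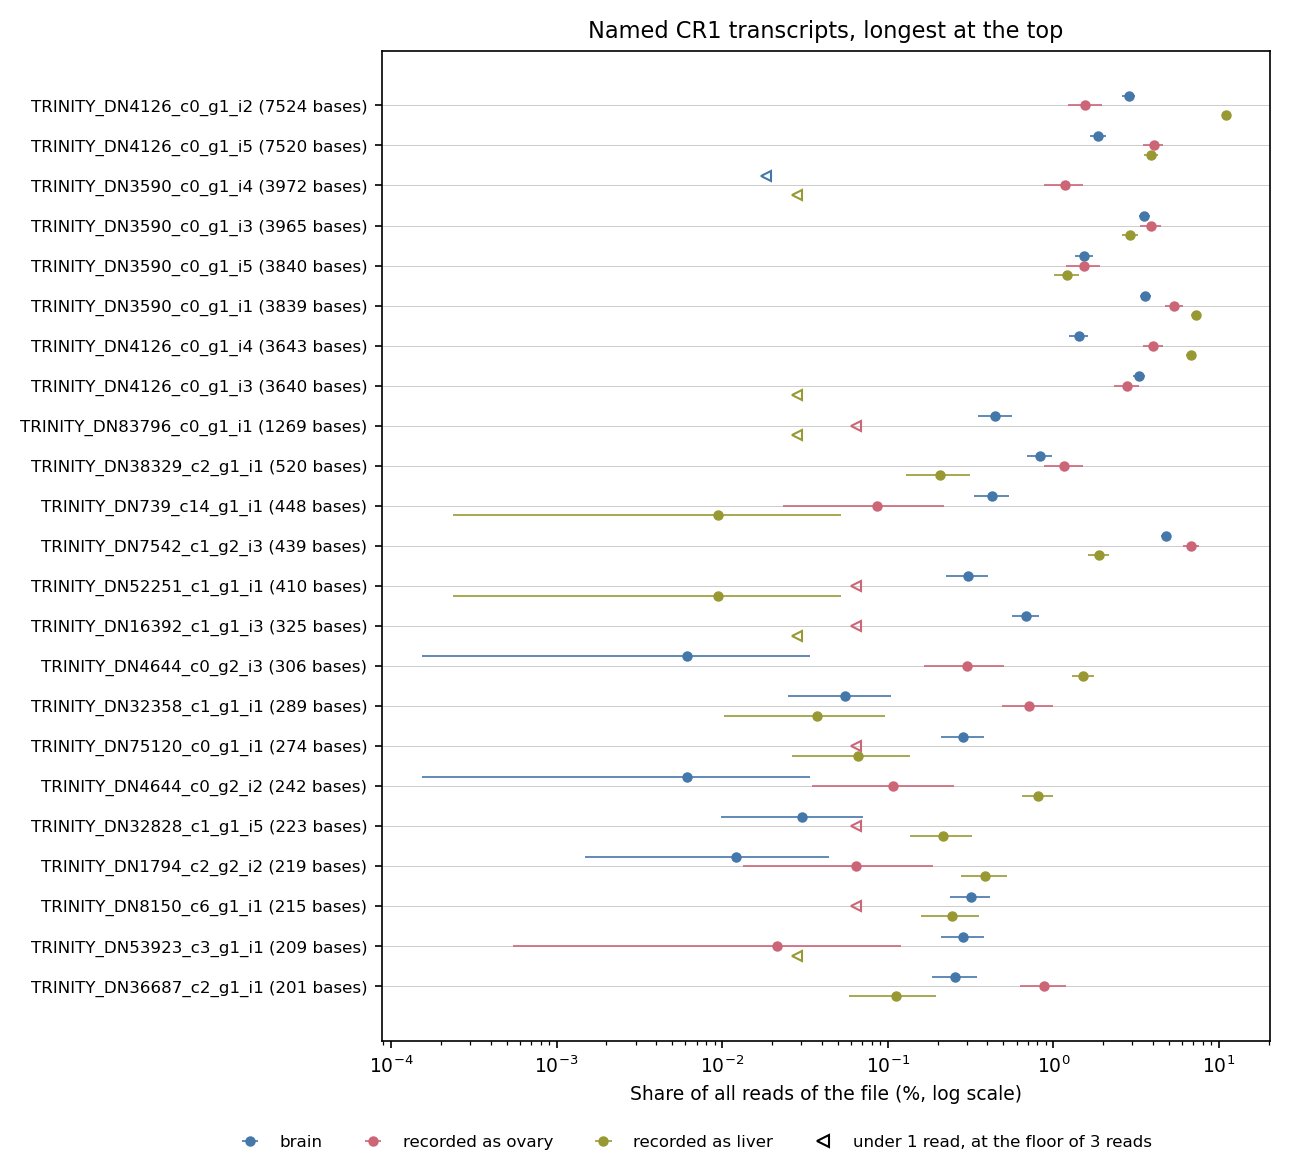
Share of all reads of the file (percent, log scale) of the named CR1 transcripts in the 3 libraries, with exact 95% counting intervals; open triangles mark values under 1 read, drawn at the floor of 3 reads. TRINITY_DN7542_c1_g2_i3 and the transcripts of TRINITY_DN4126_c0_g1 and TRINITY_DN3590_c0_g1 lie above 1% wherever they have at least 1 read, and TRINITY_DN4644_c0_g2_i3 runs from 0.0061% in brain to 1.51% in recorded liver.

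What was common to both comparisons with brain does not depend on the conflicting names, although both use the same brain library. Of 58 CR1 transcripts with enough reads in both comparisons, 18 were higher in brain than in both others and 2 lower, against 28.8% and 3.60% of all 111 transcripts. The CR1 counts lay near that background, and the 111 include the 58. The 2 lower ones were TRINITY_DN4126_c0_g1_i4 and TRINITY_DN4126_c0_g1_i5, of which TRINITY_DN4126_c0_g1_i5 was under 2-fold in both comparisons as a share of CR1 reads. Their component was 2.29-fold lower in brain than in recorded liver but only 1.31-fold lower than in recorded ovary. How much of both calls comes from the division of reads by estimation was not tested. As components, 20 of 52 were higher and 1 lower, against 34.0% and 2.13% of all components. The lower component was TRINITY_DN4644_c0_g2. The 18 had 22 to 112 reads in brain, at most 4.02 in recorded ovary and at most 11.4 in recorded liver. They thus passed the minimum of 20 reads only through brain, the library where they were high. All but TRINITY_DN83796_c0_g1_i1 were at most 448 bases long. With 20 or more reads in brain and none in the other libraries there were 12 of the 198 CR1 transcripts. Among all 480 transcripts there were 18, and 6 among the 282 others. All passed this minimum through brain, the deepest library, alone. The 12 include both transcripts of TRINITY_DN15642_c6_g1, at 20.5 reads each of the component's 41. After TRINITY_DN16392_c1_g1_i3 and TRINITY_DN83796_c0_g1_i1, the largest of the 12, chosen after their values were seen, were TRINITY_DN19477_c1_g1_i1 with 36.3 reads and TRINITY_DN38936_c1_g1_i1 with 35. For TRINITY_DN38936_c1_g1_i1, 9.92 reads would have been expected in recorded ovary and 22.7 in recorded liver at the brain share.

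TRINITY_DN128_c1_g1 held the most CR1 transcripts in the files, 5 of 261 to 537 bases. It had 162 reads in brain, 61.7 in recorded ovary and 55.0 in recorded liver. The 537-base TRINITY_DN128_c1_g1_i7 took 81.4%, 78.1% and 80.9% of them, a split that stayed within the counting intervals between libraries. As a share of all reads the component had a ratio of 0.745 for brain over ovary (0.550 to 1.01), of 1.91 for brain over liver (1.40 to 2.64) and of 2.57 for ovary over liver (1.77 to 3.78). The log2 ratio of ovary over liver, 1.36, became 0.68 with TMM and 0.62 with median-of-ratios factors, under 2-fold. TRINITY_DN2219_c1_g1, with 4 transcripts of 223 and 302 bases, had 50.6 reads in brain, 19.6 in recorded ovary and 42.9 in recorded liver, and its 3 intervals of ratios of shares all included 1. Its log2 ratio of brain over liver was -0.38, and -1.15 with TMM and -1.29 with median-of-ratios factors. The 2425-base TRINITY_DN28489_c0_g1_i7, the longest CR1 transcript outside both large components, was chosen after its values were seen. It had 122 reads in brain, 35 in recorded ovary and 42 in recorded liver. As a share of all reads its ratio was 1.88 for brain over liver (1.32 to 2.74) and 1.91 for ovary over liver (1.18 to 3.06), both under 2-fold. On the TPM scale its levels were 1165 TPM in brain, 1142 TPM in recorded ovary and 1109 TPM in recorded liver.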

How the data were processed

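Total RNA of 3 tissues of 1 animal was sequenced on an Illumina HiSeq instrument from libraries without strand information, per the labels' protocols. The authors deposited estimated counts per subfamily, a log2 CPM table of unstated scaling whose base was taken from its values, and estimated counts, lengths and TPM per transcript. The transcript files have Salmon's columns, per the file headers. Per the submitters' processing notes, Bowtie2 2.3.4.1 was among the tools. Its role, the assembler, the element annotation's method and the quantifier's version were not given in the sources used here.

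From the deposited estimated counts, shares with Clopper-Pearson 95% intervals and ratios of shares with exact conditional binomial intervals were computed (scipy 1.17.1), on counts rounded to whole reads. A count of 0 was set at 3 reads. The intervals cover counting error only, and since no molecular identifiers are recorded, reads need not be independent molecules. TMM factors came from edgeR 4.0.16. Reads off a whole number by over 0.01 were found for 54 CR1 transcripts in brain, 30 in recorded ovary and 23 in recorded liver. These held 68.8%, 70.7% and 81.2% of the CR1 reads of their library.

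Named transcripts are the 5 with most reads per library, the 5 longest, up to 5 per side and pair ranked by the interval bound nearest to 1, and the components with most transcripts (3, with a tie 4). Members and rules were chosen with earlier results of these data known.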

Additional observations from a re-analysis of the deposited data

How the results depend on the processing

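No paired analysis was possible because each tissue has 1 library. With no replicate to leave out, the spread between animals and between libraries is unknown. Depth limits single transcripts: the floor of 3 reads is 0.0645% of recorded ovary. The cause of the changes below was not tested. In the subfamily table, the log2 ratio of CR1 for brain over ovary was -1.09 and turned to 0.29 without SINE3, 0.045 among LINEs and 0.71 in the deposited log2 CPM, with -0.065 by TMM and -0.21 by median-of-ratios factors. For brain over liver it was -1.44, and -0.57, -0.42, -0.97, -1.89 and -1.85 under the same settings, and for ovary over liver -0.35, and -0.86, -0.46, -1.68, -1.83 and -1.64.

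In the files, the log2 ratio for brain over ovary was -0.15, and 0.21 by TPM, -0.24 by TMM, -0.33 by median-of-ratios factors, -0.27 without the leading transcript of each library, -0.28 for CR1 transcripts of at least 300 bases and -0.011 without both large components. For brain over liver it was -0.13, and 0.018, -0.90 and -1.04 by TPM, TMM and median-of-ratios factors, -0.33 among LINEs, -0.34 for at least 300 bases and 0.65 without both large components. For ovary over liver it was 0.020, and -0.19, -0.66 and -0.72 by these scalings, 0.10 without the leading transcripts, -0.13 among LINEs, -0.062 for at least 300 bases and 0.66 without both large components. The values without both large components were not computed with TMM or median-of-ratios factors.

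The counts of CR1 transcripts lower in brain than in ovary (7) became 14 with a minimum of 10 reads, 23 with none, 3 at 3-fold and 3 without transcripts of fractional reads, and of components (5) 8 by median-of-ratios factors and 10 with a minimum of 10 reads. For brain over liver, the 38 higher became 25 without transcripts of fractional reads. The 11 lower became 17 by TPM and by median-of-ratios factors, 7 at 3-fold and 7 without fractional reads, and the 7 lower components 11 by TMM and 13 by median-of-ratios factors. For ovary over liver, the 11 higher transcripts became 17 with a minimum of 10 reads, 26 with none and 6 without fractional reads, and the 7 lower 11 by TPM, TMM and median-of-ratios factors. Higher components (11) became 7 and lower ones (5) became 8 by TMM and median-of-ratios factors. Alternatives on fractional reads and on both large components were chosen after seeing the data. With at least 5 reads, 44 CR1 transcripts were detected in recorded ovary and 50 in recorded liver.

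Of CR1 TPM, the class under 300 bases held 65.0%, 57.2% and 61.0%, the middle class 32.1%, 39.0% and 32.0% and the long class 2.95%, 3.75% and 7.03% (brain, recorded ovary, recorded liver). Without the CR1 transcript with most reads of each library, the classes held 27.8%, 19.3% and 15.2% of reads under 300 bases, 22.8% and 17.6% at 300 to under 1000 bases in brain and recorded ovary, and 49.4%, 63.1% and 69.9% above. The leading transcripts' share became 59.9%, 70.7% and 84.9% for the top 10, 22.6%, 40.0% and 39.1% by TPM and 60.4%, 73.7% and 84.9% as components. Among the 42 calls of the 23 named transcripts, 117 of 154 log2 ratios by TMM or median-of-ratios factors, TPM or share of CR1 reads stayed within the counting interval, 37 left it and 0 turned direction, and 5 of the calls were under 2-fold in some setting.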
